A study of Homo sapiens with 6 samples.

Results

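The lysosomal cathepsins are the proteases that digest proteins inside the lysosome. The 10 genes described here, CTSA, CTSB, CTSC, CTSD, CTSF, CTSH, CTSK, CTSL, CTSV and CTSZ, were chosen by name from 57123 genes with a count. They were selected on the comparison of genotypes that is reported below, with its results known, so their levels and log2 fold changes are given as a description without a test. RNA of HEK293 cells, a human embryonic kidney cell line, was sequenced in 6 libraries of total RNA, 3 from wild type (WT) cells and 3 from MUL1(-/-) cells, both grown in the same supplemented DMEM and with no drug treatment. MUL1 is an E3 ubiquitin ligase of the mitochondrial outer membrane, and the study states that its gene was inactivated with CRISPR-Cas9. The labels do not say whether the MUL1(-/-) libraries came from 1 clone or several, so a difference between clones and an effect of the genotype cannot be told apart. They also do not say that the 3 libraries of a genotype came from separate cultures, so p-values measure only the spread between these libraries.

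Cathepsins are made as inactive precursors, tagged with mannose 6-phosphate in the Golgi and carried to the lysosome, where the acid pH set by the vacuolar ATPase allows their maturation. Most are cysteine proteases of the papain family (CTSB, CTSC, CTSF, CTSH, CTSK, CTSL, CTSV and CTSZ), CTSD is an aspartic protease and CTSA is a serine carboxypeptidase. Many lysosomal genes carry the letters CACGTG near their start, the core of the element recognised by TFEB, TFE3 and MITF. Cystatins and some serpins inhibit the cysteine cathepsins.

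Gene counts summed over exon bins totalled 127015142 to 142803296 in the WT libraries and 121917971 to 122441959 in the MUL1(-/-) libraries. Levels are CPM, counts scaled to a common library total after TMM normalization. A floor of 3 counts corresponded to 0.0210 to 0.0246 CPM, and such limits cover at most counting error. Reads were counted in each bin they touch, so 3 counts can come from fewer reads. MUL1 itself had 15.4, 15.2 and 19.0 CPM in WT and 18.7, 16.7 and 19.2 CPM in MUL1(-/-), a log2 fold change of 0.14 (SE 0.10, edgeR quasi-likelihood test with Benjamini-Hochberg adjustment, adjusted p = 0.321), so its RNA gave no check of the labels. Of the 7 HEK293 markers, all were detected, with summed levels of 1310 to 1524 CPM in WT and 934 to 1114 CPM in MUL1(-/-). Of these, 1 passed the edgeR test (adjusted p under 0.05) as higher and 3 as lower, where 18.8% of all genes tested passed as higher and 18.7% as lower. The markers that passed as lower were PAX2 (9.46 to 2.72 CPM, log2 fold change -1.80), KRT8 (-0.93) and VIM (-0.34), and NEFM was higher (1.06).

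The sequence just before the start of CTSZ is shown because this gene had the largest difference between genotypes among the cathepsins. The 250 bases upstream of the RefSeq start (GRCh38.p14, minus strand, chr20:59007255-59007504) are given 5′ to 3′, with each GGGCGG, the letters bound by factors of the Sp family, or its reverse complement CCGCCC in capitals.
CTSZ upstream: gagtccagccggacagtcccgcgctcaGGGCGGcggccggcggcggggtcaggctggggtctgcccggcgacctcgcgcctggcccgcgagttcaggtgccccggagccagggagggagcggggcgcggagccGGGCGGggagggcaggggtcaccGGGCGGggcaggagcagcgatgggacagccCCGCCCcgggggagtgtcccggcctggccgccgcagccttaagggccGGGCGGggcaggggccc
This stretch held 5 matches of GGGCGG on either strand and none of CACGTG, and 81.2% of its bases were G or C, against a median of 58% over 27305 promoter windows of that length. It had 30 CpG dinucleotides, where the median was 11.

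Of the 10 cathepsins, 8 were in the RefSeq promoter table, and CTSB and CTSK were not. CACGTG was found in the 250 upstream bases of 3 of these 8 genes (CTSA, CTSD and CTSF), and in 6.49% of all promoter windows of the same length. Stretches of 30 bases holding these matches are shown to compare them, with CACGTG in capitals.
CTSA, chr20:45891290-45891319, plus strand: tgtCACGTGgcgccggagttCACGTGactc
CTSD, chr11:1763948-1763977, minus strand: gccCACGTGaccggtccgggtgcaaacacg
CTSF, distal match, chr11:66568703-66568732, minus strand: aagCACGTGatagaggtcagtgactagctt
CTSF, proximal match, chr11:66568631-66568660, minus strand: cccCACGTGcctcctgtaaacaagagaacg
CTSA carried a pair of matches in 1 stretch, the first starting 42 bases before the gene start, and the second of them lay within the longer palindrome TCACGTGA, which 0.890% of all windows held. GGGCGG on either strand was present in 7 of the 8 genes, CTSF being the exception, and in 42.3% of all windows. TATAAA, searched on both strands, was in none of the 8 and in 11.1% of all windows. The 3 genes with CACGTG were lower (CTSA), overlapping (CTSD) and nearly undetected (CTSF) in the counts described next.

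Of the 10 cathepsins, 9 passed the filter on low counts and CTSF did not. The libraries of the genotypes did not overlap for 7 of these 9: CTSZ, CTSA, CTSB, CTSH and CTSV were lower in MUL1(-/-), CTSC and CTSL were higher, and CTSD and CTSK overlapped. Across all 25125 genes tested, 24.4% were lower and 24.1% were higher without overlap. The median log2 fold change of the 9 was -0.26, against -0.01 over all genes tested. CTSZ was the 1 cathepsin with an absolute log2 fold change above 1. Since the genes were selected on this comparison, nothing is read from these counts.

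CTSZ (ENSG00000101160, chr20:58995185-59007247, minus strand), which encodes cathepsin Z, also called cathepsin X, a carboxypeptidase that removes single residues from the C-terminus of proteins, had 20.1, 18.5 and 18.5 CPM in the 3 WT libraries and 0.569, 0.535 and 0.331 CPM in the 3 MUL1(-/-) libraries. In raw counts these were 2554, 2621 and 2326 against 72, 67 and 41. Every MUL1(-/-) library was far below every WT library and also well above the floor, so the transcript remained detectable. The means with their SD over 3 libraries were 19.0 ± 0.926 CPM for WT and 0.479 ± 0.129 CPM for MUL1(-/-). The edgeR log2 fold change was -5.31 (SE 0.16), which corresponds to 39.7-fold. Of the 25125 genes tested, 30 had a lower log2 fold change. Among the 15858 genes whose mean reached 1 CPM, 16 did.

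The other cathepsins differed by much less. CTSB (ENSG00000164733, chr8:11842524-11869448), an endopeptidase that also cuts pairs of residues from C-termini, was the most abundant in counts, with 327, 307 and 292 CPM in WT and 251, 254 and 268 CPM in MUL1(-/-). All MUL1(-/-) values lay below the WT values, but the highest of the former and the lowest of the latter were close, and the log2 fold change was -0.26 (SE 0.07). CTSH (ENSG00000103811, chr15:78921058-78949574), chiefly an aminopeptidase, had 11.2, 10.3 and 10.3 CPM in WT and 6.59, 8.09 and 6.52 CPM in MUL1(-/-). No value overlapped, and its log2 fold change of -0.58 (SE 0.11) was the lowest of the 9 after that of CTSZ.

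CTSL and CTSV are close paralogs on chromosome 9, and how reads that match both were treated is not given in the sources used here. They differed in opposite directions. CTSL (ENSG00000135047, chr9:87725519-87731393), a broadly expressed endopeptidase, had 55.0, 56.9 and 66.3 CPM in WT and 73.5, 72.8 and 72.4 CPM in MUL1(-/-). The MUL1(-/-) libraries were all higher and close to one another, and the log2 fold change was 0.30 (SE 0.08). CTSV (ENSG00000136943, chr9:97029679-97039643), known for a narrower expression in thymus, testis and cornea, had 23.5, 21.5 and 24.8 CPM in WT and 16.8, 15.7 and 16.3 CPM in MUL1(-/-). All its MUL1(-/-) values were lower, with a log2 fold change of -0.52 (SE 0.08).

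CTSC (ENSG00000109861, chr11:88293592-88337787), a dipeptidyl peptidase that activates serine proteases of immune cells, had 55.9, 52.1 and 55.7 CPM in WT and 64.7, 66.3 and 76.8 CPM in MUL1(-/-). The MUL1(-/-) libraries were all higher, replicate 3 the most so, and the log2 fold change was 0.35 (SE 0.08). It was 0.58 when the most counted exon bin stood for the gene, a dependence that the bins below describe. CTSK (ENSG00000143387, chr1:150796208-150808323), the collagen-cutting protease of osteoclasts, had 1.30, 1.36 and 1.25 CPM in WT and 1.56, 1.73 and 0.985 CPM in MUL1(-/-). The groups overlapped because MUL1(-/-) replicate 3 was below all WT libraries, and the log2 fold change of 0.13 (SE 0.19) became 0.33 without that library and -0.03 without MUL1(-/-) replicate 2. CTSF (ENSG00000174080, chr11:66563463-66568841) was at the limit of detection, with 4, 0 and 8 counts in WT and 14, 10 and 1 in MUL1(-/-), and no fold is given.

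The remaining pair, CTSA and CTSD, are not cysteine proteases. CTSA (ENSG00000064601, chr20:45890144-45898820, plus strand), a carboxypeptidase that also protects β-galactosidase and neuraminidase in a complex, had 62.3, 53.8 and 64.5 CPM in WT and 44.2, 39.1 and 49.5 CPM in MUL1(-/-). All MUL1(-/-) values were lower, with a log2 fold change of -0.44 (SE 0.09), and 29.9% of its counts lay in bins that other genes also cover. CTSD (ENSG00000117984, chr11:1752752-1764573), a major lysosomal endopeptidase, had 24.9, 21.5 and 23.0 CPM in WT and 22, 21.0 and 28.4 CPM in MUL1(-/-). The groups overlapped and the log2 fold change was 0.04 (SE 0.11), with -0.10 when MUL1(-/-) replicate 3 was left out. These values used 19.0% of the counts in its bins, since its other bins are shared with a read-through transcript, and with all bins the log2 fold change was 0.10.

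**Figure D1:**
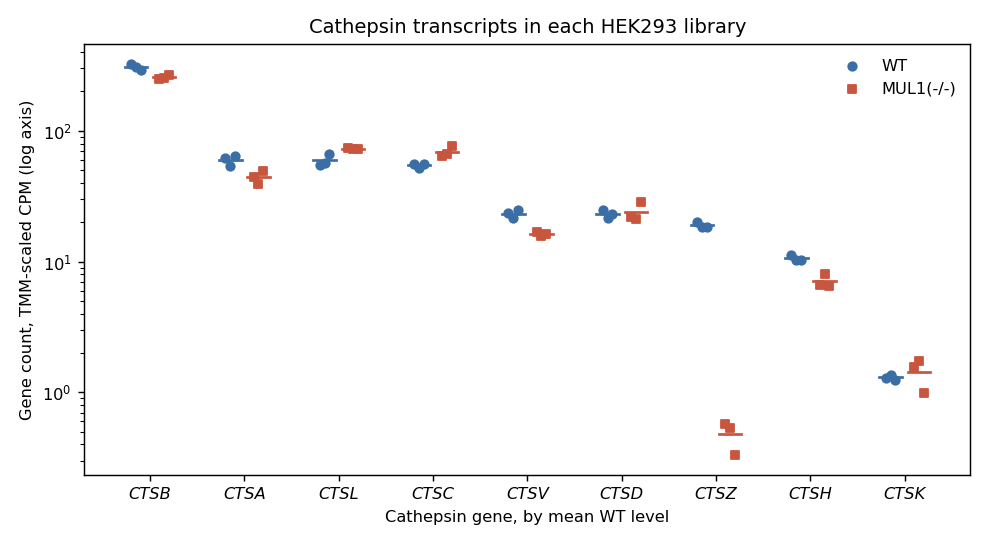
TMM-scaled CPM (log axis) of the 9 cathepsins that passed the filter, in each of the 3 WT (circles) and 3 MUL1(-/-) (squares) libraries, with bars at the means, ordered by mean WT level. CTSZ was at 18.5 to 20.1 CPM in WT and 0.331 to 0.569 CPM in MUL1(-/-), while the other genes stayed on the same part of the axis in both genotypes.

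Levels were compared between genes only per length, as CPM per kb of exon bins. This scale used all bins of each gene, so for CTSD it took in the bins shared with the read-through transcript that its CPM above left out. On this scale the mean WT levels were 41.5 for CTSB, 38.3 for CTSD and 25.1 for CTSL, then 10.3 for CTSA, 9.34 for CTSZ, 4.95 for CTSV and 4.78 for CTSC, and at the low end 1.80 for CTSH, 0.691 for CTSK and 0.0109 for CTSF. From the 21 bins kept for its CPM alone, CTSD was at 12.7 CPM per kb in WT. When each gene was given the highest CPM per kb among its bins of at least 100 bases, CTSB (107), CTSD (56.7) and CTSL (42.95) led, followed by CTSC (37.9), CTSA (35.5), CTSV (24.6) and CTSZ (16.6). The longest bin of each gene gave another order in WT, with CTSZ at 8.43 and CTSB at 7.74, CTSL at 0.800, CTSA at 0.751 and CTSD at 0.221 CPM per kb. The longest bin can hold few of the counts of a gene. That of CTSD held 9, 3 and 11 counts in WT, where a bin of 139 bases held 852, 786 and 757. All bins and the highest bins both placed CTSB, CTSD and CTSL first. With its kept bins alone, CTSD lay below CTSL. The order of the other genes differed between these scales and is not resolved. As a share of the summed CPM per kb of the 10 genes, CTSZ made up 6.83% ± 0.258 of the WT total and 0.190% ± 0.0614 of the MUL1(-/-) total (SD, n = 3 each). The share of CTSL was 18.4% ± 1.84 in WT and 24.6% ± 1.87 in MUL1(-/-), and that of CTSB was 30.4% ± 1.78 in WT and 27.7% ± 1.14 in MUL1(-/-) (SD, n = 3 each). These shares also used all bins. Summed over the 10 genes without scaling for length, and with the kept bins of CTSD only, the level was 581, 543 and 556 CPM in WT and 481, 479 and 519 CPM in MUL1(-/-). With all its bins the sums were 682, 634 and 654 CPM in WT and 577, 569 and 644 CPM in MUL1(-/-), and the genotypes overlapped.

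Exon bins show whether a difference ran along the whole transcript. Of the 12 bins of CTSZ, 8 had a mean of at least 50 counts, and all 8 were lower in every MUL1(-/-) library. Their log2 ratios of mean CPM ran from -6.76 to -4.85. The last bin at the 3′ end, of 575 bases, held 668, 637 and 602 counts in WT and 23, 19 and 21 counts in MUL1(-/-). Nearer the 5′ end, the bin of 105 bases with the lowest ratio held 232, 218 and 225 counts in WT and 3, 3 and 0 in MUL1(-/-). In both genotypes the last bin, which is longer, held more counts than this 5′ bin. With only a few counts in the 5′ bins of MUL1(-/-), the difference in ratio between the ends was not tested.

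The other lower genes were lower along their length. All 10 such bins of CTSV and all 9 of CTSH were lower without overlap, with log2 ratios from -0.62 to -0.45 and from -1.01 to -0.51. Of 33 bins of CTSA, 24 were lower and 9 overlapped, and of 46 bins of CTSB, 31 were lower and 15 overlapped. All 31 bins of CTSD, the shared ones included, overlapped. Of 19 bins of CTSL, 14 were higher and 5 overlapped, 4 of the latter being its first 4 bins.

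The bins of CTSC were divided. Its 28 bins were sorted, after their values were seen, by the 3 transcripts of the GENCODE 29 basic set that hold them: the longest, CTSC-201, has 7 exons and encodes the complete enzyme, and the others end early in exons of their own. In the 8 bins held by CTSC-201 alone, the summed counts were 4151, 4274 and 4007 in WT and 5242, 5423 and 6113 in MUL1(-/-). All MUL1(-/-) sums were higher, with a log2 ratio of mean CPM of 0.50, and 7 of these 8 bins did not overlap. In the 6 bins held by the shorter transcripts alone, the summed counts were 834, 904 and 946 in WT and 721, 694 and 957 in MUL1(-/-). These overlapped in all 6 bins, with a log2 ratio of -0.11. In the first exon, 3 of 9 bins were lower, 3 were higher and 3 overlapped. The difference between these groups of bins was not tested.

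For the region around CTSZ, the 5 nearest tested genes on each side were examined, none of which had been used to choose the cathepsins. By start position they lay 13.98 to 868.4 kb from CTSZ. Across all genes tested, 18.8% passed the edgeR test (adjusted p under 0.05) as higher and 18.7% as lower. Of the 10 neighbours of CTSZ, 5 passed as lower and 0 as higher, with a median log2 fold change of -0.43 and a range from -1.15 to 0.46. NELFCD, a subunit of the negative elongation factor, fell from 150.3 to 108 CPM (log2 fold change -0.48, SE 0.07, adjusted p = 1.19e-04 with edgeR). ATP5F1E, the epsilon subunit of ATP synthase, fell by 0.52 on the log2 scale and PRELID3B by 0.88. PHACTR3 fell by 0.87 and SYCP2 by 1.15 on the log2 scale, at lower levels of 2.27 and 3.55 CPM in WT. TUBB1, 3 miscellaneous RNAs and 1 antisense RNA did not pass. At an unadjusted p under 0.05, too, 5 were lower and 0 higher with edgeR, and DESeq2 and limma voom each passed 5 as lower and 0 as higher. With the 10 nearest tested genes on each side, 9 of 20 passed as lower and 0 as higher with edgeR (median -0.39). The part of the surrounding region in the difference at CTSZ was not tested.

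The neighbours of the other cathepsins differed from locus to locus. Their distances differed too, from 1.52 to 118.8 kb at CTSA and from 180.3 to 1930 kb at CTSC, so the regions are not alike in size. At CTSA, also on chromosome 20, 8 of 10 neighbours passed as lower and 0 as higher, with a median log2 fold change of -0.44 beside -0.44 for CTSA. Reads were counted without strand and 29.9% of the counts of CTSA lay in bins that other genes also cover, so the closest neighbours, such as NEURL2 and an antisense RNA, may share reads with it. From unshared bins alone, CTSA was at -0.45. At CTSH, 5 of 10 passed as higher and 0 as lower, with a median of 0.45 beside -0.58 for CTSH, the opposite sign; DESeq2 passed 3 and limma voom 4 as higher. At CTSB, 3 of 10 passed as lower and 0 as higher (median -0.14). At an unadjusted p under 0.05, edgeR also gave 0 higher neighbours at CTSA and CTSB and 0 lower ones at CTSH, and so did DESeq2 and limma voom after adjustment. At CTSV and at CTSC, 1 of 10 passed as lower (medians -0.16 and -0.14), and at CTSL, 1 passed as higher and 1 as lower (median 0.07). At CTSD and at CTSF, 2 of 10 passed as higher and 0 as lower (medians 0.04 and 0.06). At CTSK, 1 passed as higher and 2 as lower (median -0.05). With 10 genes on each side, CTSA had 10 of 20 lower and 1 higher, CTSB 7 lower and 1 higher, and CTSH 10 higher and 0 lower. In that window CTSC had 5 lower and 0 higher, CTSV 3 lower and 0 higher, and CTSL 5 higher and 1 lower. For CTSD and CTSF, 3 were higher and 3 lower at each, and for CTSK 4 were higher and 3 lower. The counts thus depend on the window. The part of the surrounding region in the difference at CTSA was not tested.

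**Figure D2:**
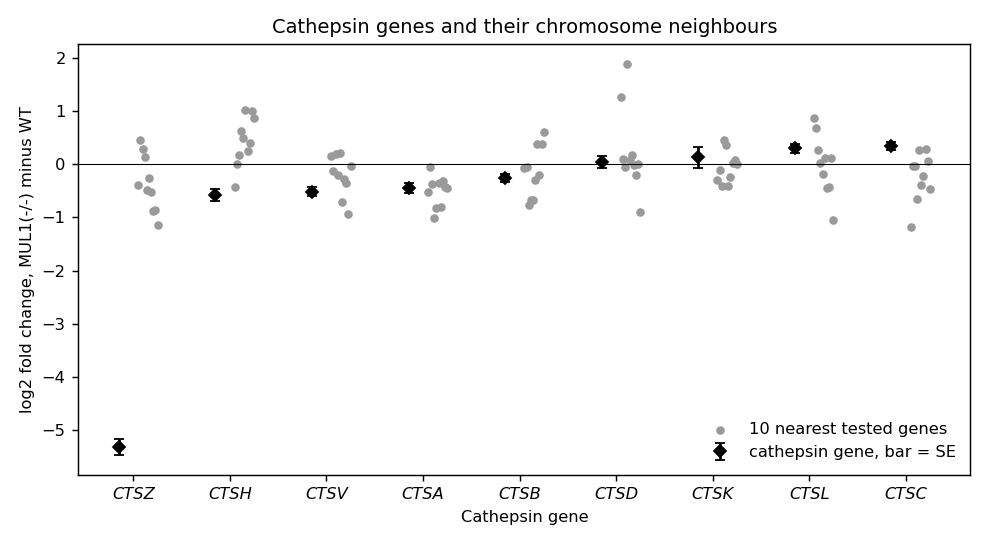
Log2 fold change (MUL1(-/-) minus WT) of the 9 tested cathepsins (diamonds, bars are SE) and of the 10 nearest tested genes of each (grey points). CTSZ was at -5.31 and its neighbours ran from -1.15 to 0.46, and CTSA was at -0.44 with neighbours at a median of -0.44.

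The genes most like CTSZ over the 6 libraries were found by the Euclidean distance between log2 CPM values centred on each gene's mean, among genes whose mean reached 1 CPM. They were GPR173, on the X chromosome (distance 0.564), BMP2, on chromosome 20 (0.878), CYB561, on chromosome 17 (1.09), HBQ1, on chromosome 16 (1.16), and ATL3, on chromosome 11 (1.17). BMP2, a secreted bone morphogenetic protein, averaged 20.6 ± 1.28 CPM over the WT libraries and 0.327 ± 0.0525 CPM over the MUL1(-/-) libraries (SD, n = 3 each). The closest gene, the orphan receptor GPR173, was at 5.42 ± 0.127 and 0.106 ± 0.0501 CPM (SD, n = 3 each). The distance takes in the difference between the genotypes as well as the spread within them.

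The rest of the cathepsin system was followed in 8 lists of other genes, 121 in all, of which 110 were tested. Of these, 35 passed as higher (31.8%, against 18.8% of all genes tested), 13 passed as lower (11.8%, against 18.7%) and 62 did not pass, with a median log2 fold change of 0.09. Most differences were small: 1 of the 110 also had an absolute log2 fold change above 1, as higher, where 4.23% of all genes tested were so classed as higher and 3.87% as lower. The lists were compiled with earlier results of these data known.

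Cathepsins outside the 10 were scarce. Of 6 listed, 4 were tested and 2 passed as higher (50%, against 18.8% of all genes tested). CTSO, a cysteine cathepsin, had 0.945, 0.644 and 0.953 CPM in WT and 1.42, 1.502 and 2.03 CPM in MUL1(-/-), a log2 fold change of 0.97 (SE 0.19, edgeR adjusted p = 0.00109). NAPSA, the aspartic protease napsin A, had 1.62, 1.32 and 1.29 CPM in WT and 2.12, 1.92 and 1.82 CPM in MUL1(-/-), a log2 fold change of 0.47 (SE 0.15, edgeR adjusted p = 0.0206). For NAPSA the adjusted p was 0.0918 without WT replicate 2, 0.0605 without WT replicate 3, 0.0731 without MUL1(-/-) replicate 1 and 0.243 from its most counted bin. CTSS, the cysteine cathepsin of antigen-presenting cells, had a log2 fold change of 0.36 (SE 0.20, edgeR adjusted p = 0.166), and its adjusted p was 0.04997 without MUL1(-/-) replicate 3. CTSW, of cytotoxic lymphocytes, had 0.46 (SE 0.24, edgeR adjusted p = 0.151). CTSE and CTSG had at most 9 counts in any library and were not tested.

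Among 12 inhibitors of cathepsins, 4 were tested, 1 passed as higher and 1 as lower (25% each, against 18.8% and 18.7% of all genes tested). CST3, the widely secreted inhibitor cystatin C, fell from 92.9 to 75.2 CPM, a log2 fold change of -0.31 (SE 0.08, edgeR adjusted p = 0.00516). CSTB, the main cytosolic cystatin, had a log2 fold change of -0.11 (SE 0.07, edgeR adjusted p = 0.259). CST1, a salivary cystatin, passed as higher with 0, 7 and 3 counts in WT and 19, 20 and 30 in MUL1(-/-). Its log2 fold change of 2.82 made it the 1 listed gene above 1, but it has near-identical paralogs and its WT libraries were at or near the floor, so the fold depends on the prior count. Of 4 proteins that activate cathepsins or work in a complex with them, 1 passed, as lower (25%, against 18.7% of all genes tested). Without WT replicate 3, 1 also passed as higher, and with library totals 2 did. PSAP, the precursor of the saposins, fell from 613, 571 and 554 CPM in WT to 383, 377 and 430 CPM in MUL1(-/-), a log2 fold change of -0.55 (SE 0.07, edgeR adjusted p = 2.60e-05). LGMN, the asparaginyl endopeptidase that cleaves several cathepsin precursors, had -0.13, and the CTSA partners GLB1 and NEU1 had 0.15 and 0.18, none of which passed.

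Of 15 mannose 6-phosphate tagging and sorting genes, 3 passed as higher and 3 as lower, 20% each, near the shares of 18.8% and 18.7% over all genes tested. Without WT replicate 2 or without MUL1(-/-) replicate 3, 1 passed as higher, without MUL1(-/-) replicate 1, 1 passed as lower, and with library totals 6 passed as higher. SORT1, the sorting receptor sortilin, rose from 85.4 to 108.5 CPM, a log2 fold change of 0.35 (SE 0.07, edgeR adjusted p = 7.5e-04). The retromer subunit VPS26A fell by 0.47 and the sorting receptor SORL1 by 0.39 on the log2 scale, the latter with an edgeR adjusted p of 0.0521 without MUL1(-/-) replicate 1. The smaller differences of M6PR (0.22), the cation-dependent mannose 6-phosphate receptor, of VPS26B (0.25) and of VPS29 (-0.22) passed in the fit to all 6 libraries together. M6PR did not pass without WT replicate 1, WT replicate 2 or MUL1(-/-) replicate 3, VPS26B without WT replicate 2, WT replicate 3 or MUL1(-/-) replicate 3, and VPS29 without WT replicate 1, WT replicate 2, MUL1(-/-) replicate 1 or MUL1(-/-) replicate 2.

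The other soluble hydrolases and their cofactors, which reach the lysosome by the same route as the cathepsins, included 32 tested genes, of which 12 rose and 5 fell. These were 37.5% and 15.6%, against 18.8% and 18.7% of all genes tested. Without WT replicate 1, 3 fell, as also with library totals or with no filter on low counts. ARSA, which degrades sulfatide, rose from 11.8 to 17.7 CPM (log2 fold change 0.58), and ACP2, an acid phosphatase, from 21.2 to 31.3 CPM (0.56). LIPA, the acid lipase, fell from 63.3 to 43.9 CPM (log2 fold change -0.53), GM2A, the activator of ganglioside degradation, from 22.9 to 16.8 CPM (-0.44), and GUSB, the β-glucuronidase, from 116.3 to 88.7 CPM (-0.39).

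Genes of the lysosomal membrane and of acidification passed as higher or not at all. Of 17 membrane proteins, 6 rose and 0 fell, and 3 rose when the most counted bin stood for each gene. The 6 were 35.3%, where 18.8% of all genes tested passed as higher and 18.7% as lower. MCOLN1, the calcium channel of the lysosome, rose from 14.3 to 27.4 CPM (log2 fold change 0.93, SE 0.11), CTNS, the cystine transporter, from 10.6 to 17.6 CPM (0.73), and LAMP1, an abundant structural glycoprotein, from 66.6 to 93.4 CPM (0.49). Of 16 subunits of the vacuolar ATPase, 5 rose (31.25%) and 0 fell. Neither list had a gene that passed as lower under any of the alternative settings, DESeq2 and limma voom included. Without overlap between genotypes, 6 membrane genes were higher and 1 lower, and 4 vacuolar ATPase genes were higher and 3 lower. Across all genes tested, 24.1% were higher and 24.4% lower without overlap. The median log2 fold changes of the membrane and vacuolar ATPase lists were 0.0256 and 0.0325. At an unadjusted p under 0.05, 0 membrane genes and 1 vacuolar ATPase gene were lower with edgeR. The count of vacuolar ATPase genes that rose was 3 without WT replicate 1 and also without WT replicate 2, and 7 without WT replicate 3. ATP6V1B2 rose from 70.9 to 112.1 CPM (log2 fold change 0.66), and ATP6V0A1 and ATP6V0A2 by 0.52 and 0.33 on the log2 scale.

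Of 18 tested regulators of lysosomal genes, 6 rose and 3 fell (33.3% and 16.7%, against 18.8% and 18.7% of all genes tested). FLCN, which controls the Rag GTPases, rose from 16.6 to 26.6 CPM (log2 fold change 0.68), MITF, a factor that binds CACGTG, from 5.80 to 8.47 CPM (0.55), and RRAGC, a Rag GTPase, by 0.44 on the log2 scale. MTOR, the kinase that holds TFEB in the cytosol, fell from 190.6 to 121.9 CPM (log2 fold change -0.64, SE 0.07), while LAMTOR4 and RRAGD fell by 0.41 and 0.33 on the log2 scale.

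**Figure D3:**
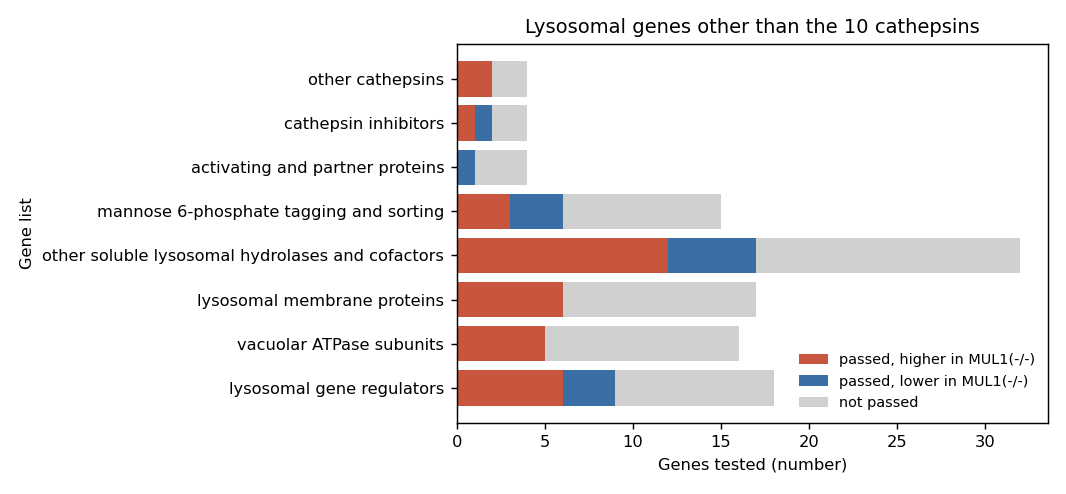
Number of tested genes in each of 8 lists of cathepsin-related and lysosomal genes outside the 10 cathepsins that passed the edgeR test as higher or lower in MUL1(-/-), or did not pass. The largest list, of 32 soluble hydrolases and cofactors, had 12 higher and 5 lower, and the membrane and vacuolar ATPase lists had 6 and 5 higher and 0 lower. Of all genes tested, 18.8% passed as higher and 18.7% as lower.

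Several cathepsins are abundant in macrophages, fibroblasts or osteoclasts, so markers of these cells were read in the same libraries. The 7 macrophage markers summed to 1.87 to 2.34 CPM in WT and 2.88 to 3.51 CPM in MUL1(-/-), and 2 of the 6 tested passed as higher, PTPRC (0.0951 to 0.365 CPM) and CSF1R (0.431 to 0.792 CPM). That was 33.3%, against 18.8% of all genes tested. The 5 fibroblast markers summed to 25.2 to 33.0 CPM in WT and 29.2 to 38.4 CPM in MUL1(-/-). LUM (1.11 to 9.45 CPM) and DCN (1.19 to 2.92 CPM) passed as higher and COL1A1 (21.9 to 16.8 CPM) as lower. These were 40% and 20% of the 5, against 18.8% and 18.7% of all genes tested. The 4 osteoclast markers summed to 1.45 to 1.92 CPM in WT and 1.37 to 1.85 CPM in MUL1(-/-), and their defining genes DCSTAMP and OCSTAMP had 0 counts and 1 count in all 6 libraries together. The labels name HEK293, a cell line, for all 6 libraries. The marker values are therefore given as RNA levels, not as a content of other cell types. In bulk RNA, the number of cells with a transcript and its level per cell cannot be told apart. The part of these markers in the cathepsin levels was not tested.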

How the data were processed

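RNA of HEK293 cells was measured in 3 WT and 3 MUL1(-/-) libraries. The authors deposited raw counts per exon bin for each library, not normalized. The submitters' processing notes name Trimmomatic 0.36, STAR 2.5.2b and GRCh38, and the counting program is not given in the sources used here. Where the plan assumed counts per gene, a gene count was the sum over its bins. Reads were counted in each bin they touch and without regard to strand, so sums exceed read numbers and antisense partners cannot be told apart. Bins under joined identifiers were given to a gene where same-strand GENCODE 29 exons named 1 gene only, and 4.37% of counts were left out. A gene's neighbours were taken by start position.

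Counts were fitted with edgeR 4.0.16 in R 4.3.3 (filterByExpr, TMM factors of 0.946 to 0.992 in WT and 1.02 to 1.03 in MUL1(-/-), quasi-likelihood test, Benjamini-Hochberg adjustment over 25125 genes). A gene passed at an adjusted p under 0.05. DESeq2 1.42.0, limma 3.58.1 voom, other scalings and filters, other ways of summing bins, a replicate block and leaving out each library were alternatives. The edgeR, DESeq2 and limma voom fits and the edgeR fit with a replicate block were tested on simulated data. Each recovered 200 of 200 genes changed by a log2 fold change of 2 among 25125. False calls numbered 16 with edgeR, 24 with DESeq2, 14 with limma voom and 32 with the block. The changed genes had at least 1 CPM, and smaller changes were not simulated. In each list the 3 highest and 3 lowest genes that passed without overlap, with a mean of at least 1 CPM, were named, as were all listed cathepsins, the neighbours of CTSZ and the 5 genes most like it. A gene that this rule names is not reported here. Genes named outside this rule, among them CST1, CSTB, LGMN, GLB1, NEU1 and the marker genes, were chosen after their values were seen, to describe their lists. The cathepsins, the lists and the tests were chosen with earlier results of these data known. Promoter sequences came from RefSeq (GRCh38.p14). Tables and plots were made with Python 3.11.15.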

Additional observations from a re-analysis of the deposited data

How the results depend on the processing

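Every setting that could be run kept the direction of CTSZ, CTSA, CTSB, CTSC, CTSH, CTSL and CTSV, the 7 cathepsins without overlap. Leaving out a library could hardly have reversed these 7, because their genotypes did not overlap, so nothing is read from the kept direction. Over these settings the log2 fold change of CTSZ ran from -5.44 to -4.83, the latter from its most counted bin, and the median of the 9 tested cathepsins from -0.30 to -0.19. CTSC was 0.58 from its most counted bin, and CTSB was -0.19 with library totals in place of TMM factors. When an absolute log2 fold change above 1 was also required, 1 listed gene was higher and 0 were lower. The median of the CTSZ neighbours was -0.68 where at least 1 CPM in 3 libraries was required, which left 6 of the genes. The adjusted p of MUL1 ran from 0.0526 to 0.695. The longest exon bin gave CPM per kb far below the sums, 0.286 for CTSC and 0.800 for CTSL in WT. For CTSC this bin was held by the shorter transcripts alone, so its value does not stand for the whole gene.

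Same-numbered libraries did not deviate together in all pairs (r = -0.08, 0.16 and 0.10 over 15858 genes), so the numbers were not taken as pairs. With the replicate number as a block, CTSZ was at -5.32, the median of the cathepsins at -0.26 and MUL1 at 0.14 (edgeR adjusted p = 0.216), and 39 listed genes passed as higher and 15 as lower. CTSF, at 0 to 14 counts, was below what this depth resolves.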
